A study of Drosophila melanogaster with 12 samples.

Results

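The wing pouch patterning genes described here are spalt major (salm), spalt-related (salr), bifid (bi, also known as optomotor-blind), blistered (bs), defective proventriculus (dve), rotund (rn) and the Dorsocross genes Doc1, Doc2 and Doc3. They were chosen by name, as every probe set whose single gene symbol in the platform annotation is one of these 9 genes, which gave 11 of the 18952 probe sets on the array, and 9 of the 11982 genes with such a probe set. Both dve and rn have 2 probe sets and the other genes have 1. All 11 passed the filter on low signals. Expression was measured on 12 Affymetrix arrays of eye-antennal imaginal discs from wandering third-instar Drosophila melanogaster larvae, with RNA of 30 pooled pairs of discs per array and 3 biological replicates of each of 4 genotypes. The first genotype, called the allele pair below, combined 2 alleles of a histone H3 methyltransferase gene, Su(var)3-9[1]/[2], with a UAS transgene of winged eye (wge) driven by ey-Gal4; wge encodes a chromatin-associated protein. The second carried ey-Gal4 and UAS-wge without these alleles (ey>wge). The third and the fourth were the parental controls, UAS-wge without a driver and ey-Gal4 without the transgene. The eyeless driver is active in these discs from early on, and whole discs were profiled, driver-negative cells included. Discs with both alleles but no winged eye transgene were not analysed here, so what the alleles or the stock do by themselves and what they do to winged eye discs cannot be told apart.

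The wing pouch is the central part of the wing imaginal disc that becomes the wing blade. Once selector genes have made the field a wing, a gradient of the BMP ligand Dpp turns on salm, salr and bi in nested central domains, and these transcription factors place the veins and drive growth of the blade. bs, the fly serum response factor, marks the territory between the veins, and dve and rn are transcription factor genes switched on across the growing pouch. Doc1, Doc2 and Doc3 encode closely related T-box factors, which are needed in the embryonic dorsal ectoderm and amnioserosa and are also expressed in the wing disc. Several of these genes are not confined to the wing. The spalt genes act in subsets of photoreceptors, bi at the dorsal and ventral edges of the eye disc, rn in rings of the leg and antennal discs, and bs in terminal tracheal cells. In the RefSeq gene table (Release 6) salm and salr are neighbours on chromosome arm 2L, Doc1 and Doc2 are neighbours on 3L, and Doc3 lies next to CG5194, the gene on the other side of Doc2.

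The deposited values are MAS5 signals, linear brightness values that had been scaled to a common level on every array. They were compared as log2(signal + 16), so changes and folds are on that scale and understate the change of dim probe sets, and a probe set was tested where it lay above its array's 40th percentile on at least 3 arrays. The targeted gene wge measured 663 ± 216 in the allele pair, 1067 ± 126 in ey>wge, 853 ± 69 in UAS-wge and 846 ± 93 in ey-Gal4 (SD, n = 3 each), and its change of 0.32 ± 0.17 (SE) on the log2 scale in ey>wge against both controls did not pass the test (limma, adjusted p = 0.498). The discs had the markers of their label, since none of 8 retinal markers lay below the 40th percentile on all arrays of any genotype. Their summed signal was 1998 to 3604 in the allele pair and 3172 to 3817 in ey>wge, against 10449 to 12144 in UAS-wge and 11490 to 12705 in ey-Gal4. Allele-pair replicates 2 and 3 stood apart from the rest. Their median signals were 33 and 34, against 38.7 to 44.4 on the other 10 arrays, and they lay at 51.6 and 66.8 on the first principal component, where allele-pair replicate 1 lay at 17.2 and the other 9 arrays between -29 and 2.43. In both, signal relative to the ey>wge mean was lower for genes of longer span (start to end in the RefSeq table), with a Spearman's rho over probe sets of -0.302 and -0.398, and probe sets are not replicates. Replicate 1 had -0.0291 and the control arrays 0.0153 to 0.158. The ey>wge arrays, which are part of that mean, had -0.0187 to 0.0121.

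The ey>wge discs, named by their transgenes, were first compared with both parental controls, to ask how far the pouch programme accompanied the wing selectors. None of the 11 probe sets rose or fell past the test. By limma at an adjusted p under 0.05, 2.97% of all 13817 probe sets tested changed (0.897% higher and 2.07% lower), so a count of 0 among 11 is near that background. At an unadjusted p under 0.05 there were 2 members, bi and Doc3, both lower, while 1635 of all probe sets reached it. The median change of the 11 was -0.15 on the log2 scale, against 0.01 over all probe sets tested, and the changes ran from -0.63 to 0.33. The 95% interval of the change ended below 1, that is below a doubling, in 10 of the 11 probe sets. The exception was the dimmer rn probe set, whose interval reached 1.17.

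**Figure D1:**
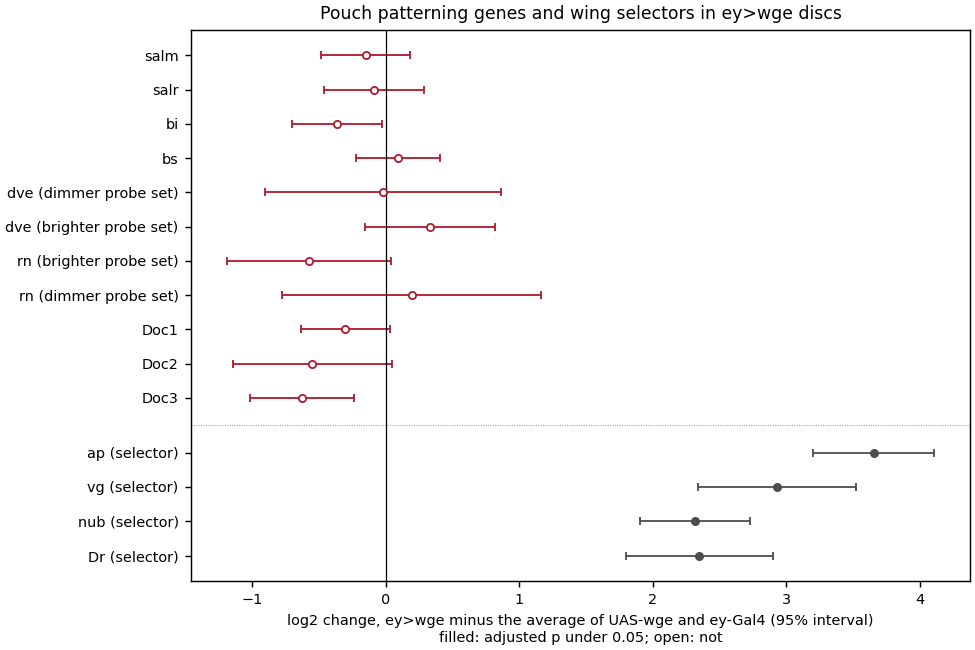
Change on the log2 scale of each probe set in ey>wge discs minus the average of the UAS-wge and ey-Gal4 discs (3 arrays each), with its 95% interval; the wing selectors ap, vg, nub and Dr stand below the dotted line, and filled points have an adjusted p under 0.05. The 11 pouch patterning probe sets lie between -0.63 and 0.33 with open points, while the 4 selectors, each shown by its brightest probe set, lie between 2.32 and 3.65.

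The wing selectors in the same fit, each by its brightest probe set, changed by 3.65 ± 0.22 (ap), 2.93 ± 0.28 (vg), 2.32 ± 0.20 (nub) and 2.35 ± 0.26 (Dr), each past the test. Dimmer tested probe sets of ap and vg rose by 2.43 ± 0.29 and 2.41 ± 0.40, while that of nub did not rise (-0.45 ± 0.42, limma, adjusted p = 0.781). The selectors had been singled out in these data for their rise, so their distance from the pouch patterning genes is a description and was not tested.

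Among the Dpp targets, salm encodes a zinc-finger factor of the central pouch. It read 1337, 1179 and 1189 in ey>wge replicates 1, 2 and 3, against 1469, 1168 and 1279 in UAS-wge and 1486, 1541 and 1318 in ey-Gal4. The arrays of ey>wge overlapped with both controls, and the change was -0.15 ± 0.16 (SE), with a 95% interval from -0.48 to 0.18 (limma, adjusted p = 0.814). Its paralogue salr read 349, 324 and 457 in ey>wge, against 438, 328 and 324 in UAS-wge and 365, 421 and 544 in ey-Gal4. These groups overlapped too, at a change of -0.09 ± 0.18, with an interval from -0.46 to 0.29 (adjusted p = 0.919). The salr probe set bears the suffix that Affymetrix gives to probe sets matching several transcripts, and part of its signal may come from another transcript.

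Retinal markers moved in the same comparison, where 0.897% of all probe sets were called higher and 2.07% lower. All 8 of the list fell, with a median change of -1.73 on the log2 scale, among them gl (-2.17 ± 0.16), which encodes a zinc-finger factor of photoreceptors. For salm and salr, which photoreceptors also express, the fold in the same discs was 0.901 (95% interval 0.716 to 1.13) and 0.941 (0.727 to 1.22). In whole discs, fewer cells of a type and less RNA per cell cannot be told apart, and the part of the retinal markers in these values was not tested.

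bi encodes a T-box factor that is induced by Dpp over a broader part of the pouch. Its signals were 1291, 1335 and 1832 in ey>wge, against 1572, 2060 and 2431 in UAS-wge and 1876, 1625 and 1897 in ey-Gal4. Replicates 1 and 2 of ey>wge lay below all 6 control arrays and replicate 3 among them. The change of -0.36 ± 0.16 did not pass (limma, adjusted p = 0.376), and its 95% interval ran from -0.70 to -0.02.

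The intervein gene bs read 674, 761 and 857 in ey>wge, against 662, 757 and 973 in UAS-wge and 646, 608 and 677 in ey-Gal4. The 3 genotypes overlapped, and the change was 0.09 ± 0.15, with a 95% interval from -0.22 to 0.41 (limma, adjusted p = 0.896). Tracheal markers, listed because terminal tracheal cells express bs, summed to 20023 to 20796 in ey>wge, against 20814 to 21606 in UAS-wge and 19924 to 21648 in ey-Gal4. The fibroblast growth factor receptor gene btl lay below the 40th percentile on all 3 ey>wge arrays, and vvl, a POU factor gene of trachea and of wing veins, was the only one of 4 tested markers to rise. Over all probe sets 0.897% rose.

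The brighter probe set of dve, a homeobox gene of the pouch, read 362, 530 and 503 in ey>wge, against 306, 419 and 308 in UAS-wge and 368, 373 and 410 in ey-Gal4. Replicates 2 and 3 of ey>wge were above every control array and replicate 1 was not. This was the highest change of the 11, 0.33 ± 0.23, and it did not pass (limma, adjusted p = 0.665; 95% interval -0.16 to 0.82). The dimmer dve probe set read between 3.3 and 46.9 in ey>wge, between 8.6 and 34 in UAS-wge and between 26 and 62.9 in ey-Gal4, and it lay above the 40th percentile of its array on 6 of the 12 arrays.

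rn encodes a zinc-finger factor of the pouch and of the ring that forms the tarsus of the leg. Its brighter probe set read 62.1, 72.1 and 104 in ey>wge, against 132, 114 and 124 in UAS-wge and 200, 99.1 and 96 in ey-Gal4. All 3 ey>wge arrays lay below the UAS-wge arrays, while replicate 3 lay above 2 of the ey-Gal4 arrays. The change of -0.58 ± 0.29 did not pass (limma, adjusted p = 0.472). The dimmer rn probe set read 6.7, 42.9 and 30.8 in ey>wge, against 6.7, 48.5 and 3.8 in UAS-wge and 31.9, 48.1 and 3.5 in ey-Gal4, and all 3 genotypes overlapped close to background. Of the 8 antennal markers 3 fell in this comparison and none rose, with a median change of -0.18. Over all probe sets 2.07% fell. The part of these markers in the rn values was not tested.

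The Dorsocross genes all read lower on average in ey>wge than in both controls, and none passed. Doc3 read 217, 239 and 181 in ey>wge, against 327, 391 and 288 in UAS-wge and 383, 322 and 311 in ey-Gal4. Every ey>wge array of Doc3 lay below every control array, which held for 4.44% of all probe sets tested and for no other member; 3.21% lay wholly above, and no member did. Its change was -0.63 ± 0.19 (SE; limma, adjusted p = 0.0898; 95% interval -1.02 to -0.24). It passed under 3 of 20 other settings, with adjusted p-values up to 0.424 over all 20. The 3 were a fit of only the 9 arrays of these genotypes (adjusted p = 0.0237), weights that count noisier arrays less (0.0176) and removal of the trend of signal with gene span (0.0350).

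Doc1 read 298, 282 and 319 in ey>wge, against 405, 365 and 348 in UAS-wge and 451, 302 and 382 in ey-Gal4. Only ey-Gal4 replicate 2 reached down into the ey>wge range, and the change was -0.30 ± 0.16 (limma, adjusted p = 0.491). Doc2 read 88.1, 114 and 78.1 in ey>wge, against 167, 248 and 180 in UAS-wge and 159, 48 and 135 in ey-Gal4. The change of -0.55 ± 0.28 (adjusted p = 0.476) was the average of a change of -0.97 ± 0.33 against UAS-wge (adjusted p = 0.145) and one of -0.14 ± 0.33 against ey-Gal4 (adjusted p = 0.922).

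The count was also 0 against each control alone. Against ey-Gal4 limma called 3.63% of all probe sets (1.35% higher and 2.29% lower), and against UAS-wge 3.7% (1.74% higher and 1.96% lower). The unadjusted p was under 0.05 for 1 member against ey-Gal4 (Doc3, -0.64 ± 0.21) and for 3 against UAS-wge (bi, Doc2 and Doc3), all lower, while 1829 and 1745 of all probe sets reached it. Against UAS-wge the arrays of rn (brighter probe set), Doc1, Doc2 and Doc3 lay wholly below, a pattern seen in 11.6% of all probe sets, and against ey-Gal4 only Doc3 did among the members, against 11.4%. Blood cell markers summed to 3035 to 3557 in ey>wge, against 13575 to 21887 in UAS-wge and 4077 to 5074 in ey-Gal4, and their part in these values was not tested. Both comparisons share the ey>wge arrays.

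**Figure D2:**
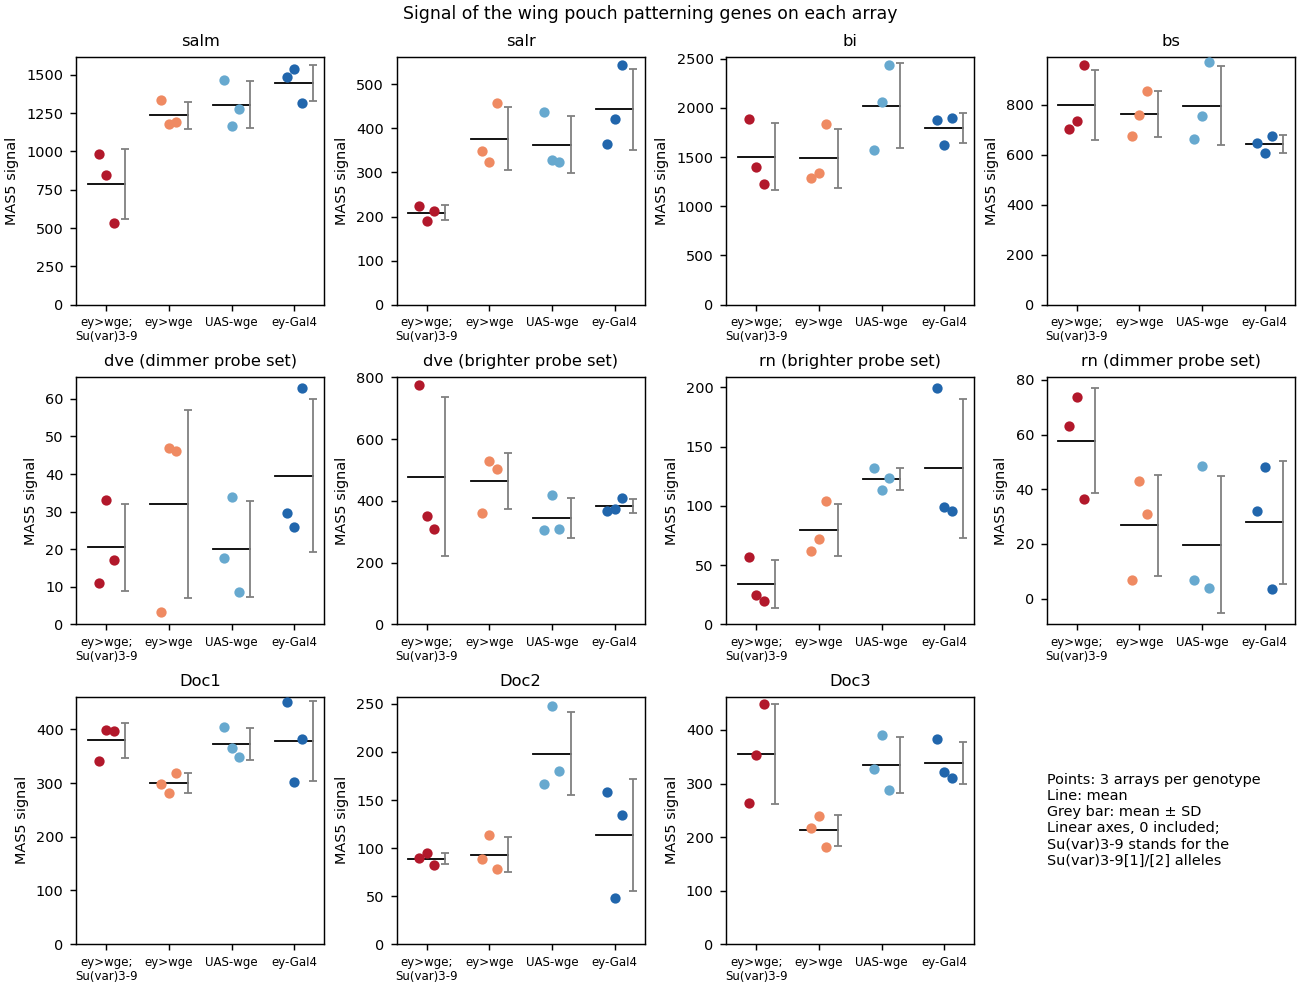
MAS5 signal (linear axes) of each probe set on the 12 arrays, in the order allele pair, ey>wge, UAS-wge and ey-Gal4; points are arrays, black lines means and grey bars the mean ± SD of 3 arrays. The allele-pair points of salm (535 to 984) and salr (191 to 223) lie below all others of their panel, and the ey>wge points of Doc3 (181 to 239) below all others of theirs.

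The genes that surround these factors in wing patterning were read from lists, each gene by its brightest probe set. In ey>wge against both controls 0.897% of all probe sets were called higher and 2.07% lower. The tested genes were 16 of 20 listed for the Dpp pathway, 19 of 22 for Hedgehog, veins and interveins, 12 of 12 for proximodistal rings and 10 of 13 for selectors and hinge. Of the 16 genes of the Dpp pathway magu, which encodes a secreted modulator that widens the Dpp gradient, rose by 0.83 ± 0.11 and none fell (limma, adjusted p = 0.000156). The list's median was -0.02, against 0.01 over all probe sets tested. The receptor gene wit had a change of -0.50 ± 0.15 (adjusted p = 0.0848) and the glypican gene dlp one of 0.30 ± 0.14 (adjusted p = 0.392). magu also differed between the parental controls, by -0.53 ± 0.13 in UAS-wge against ey-Gal4.

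In the list of Hedgehog, vein and intervein genes 5 of 19 rose and 2 fell, with a median of 0.11. Over all probe sets 0.897% rose and 2.07% fell. The paired genes kni and knrl, nuclear receptor genes that specify the second wing vein at the edge of the spalt domain, rose by 0.84 ± 0.18 and 0.83 ± 0.20 (limma, adjusted p = 0.0114 and 0.0314). Both also passed against ey-Gal4 alone (1.04 ± 0.21 and 0.98 ± 0.24), and neither against UAS-wge alone (0.64 ± 0.21, adjusted p = 0.125, and 0.67 ± 0.24, adjusted p = 0.167). The Iroquois genes caup and ara rose by 0.82 ± 0.14 and 0.71 ± 0.15 and vvl by 1.32 ± 0.32, the last short of the test against UAS-wge alone (adjusted p = 0.0759). net, which encodes a repressor of vein fate in intervein cells, fell by 0.60 ± 0.15, but did not pass against ey-Gal4 alone (-0.43 ± 0.17, adjusted p = 0.262). if, the alpha integrin gene whose product helps hold the wing surfaces together, fell by 0.94 ± 0.18.

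Of the Wingless, Notch and margin list only 8 of 18 genes were matched to a single-gene probe set, so most of it was not read here. Among these 8 sens, a zinc-finger gene of sensory precursors that is also used in photoreceptor R8, fell by 1.31 ± 0.21, and none rose (median 0.11). Among 12 genes of proximodistal rings and the tarsus ap rose, dac and B-H2 fell by 1.48 ± 0.17 and 0.80 ± 0.16, and the median was -0.05. B-H2 missed the test against UAS-wge alone (adjusted p = 0.0543). In the list of wing selectors and hinge genes 5 of 10 rose, namely ap, vg, nub, Dr and tsh (0.66 ± 0.14), with a median of 0.81. Since ap, vg, nub and Dr had been singled out in these data for this rise, their calls and that median are a description. Of the others in that list pdm2, zfh2, tio, fj and ds did not pass. Over all probe sets tested 0.897% rose and 2.07% fell. tsh missed the test against ey-Gal4 alone (adjusted p = 0.0588).

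With the allele pair, salm and salr fell below ey>wge, and no member rose. The allele-pair arrays read 984, 847 and 535 for salm and 223, 191 and 212 for salr, against 1337, 1179 and 1189 for salm and 349, 324 and 457 for salr in ey>wge. No allele-pair array of either gene reached the lowest ey>wge array, a downward separation seen in 13.6% of all probe sets. The changes were -0.68 ± 0.18 for salm (SE; limma, adjusted p = 0.0324) and -0.79 ± 0.20 for salr (adjusted p = 0.0273). These 2 calls among 11 stand against 6.8% of all probe sets called in this comparison (2.23% higher and 4.57% lower, that is 308 and 631 probe sets, against 1255 and 305 with each array centred on its median). At an unadjusted p under 0.05 there were 4 members (salm, salr, rn and Doc3) among 3152 probe sets. The wge probe set fell in the same comparison, by 0.72 ± 0.20 (adjusted p = 0.0358), and its part in the salm and salr values was not tested.

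Both calls lie near the threshold. The fit shares the spread of a probe set among the 4 genotypes, while the median SD on the log2 scale was 0.359 in the allele pair. It was 0.236 in ey>wge, 0.229 in UAS-wge and 0.251 in ey-Gal4. With only the arrays of the allele pair and ey>wge fitted, neither call passed. Removing any single ey>wge array, or allele-pair replicate 2 or 3, ended both, with adjusted p-values from 0.0502 to 0.136, and without allele-pair replicate 1 both passed (0.00120 and 0.00846). Allele-pair replicate 1 alone, a single array with no spread of its own, differed from ey>wge by -0.32 for salm and -0.70 for salr. With the span trend removed the changes were -0.51 ± 0.15 (adjusted p = 0.0549) and -0.61 ± 0.20 (adjusted p = 0.0796). With each array centred on its median they were -0.38 ± 0.17 (adjusted p = 0.156) and -0.49 ± 0.22 (adjusted p = 0.163), where the median of all probe sets was 0.22 in place of -0.08. The gene spans are 11304 bp for salm and 14764 bp for salr, longer than or equal to those of 80.7% and 84.1% of the tested probe sets with a span. Spans are longer for bi (72792 bp), dve (42507 bp), rn (37013 bp) and bs (33613 bp). Their changes against ey>wge were 0.01 ± 0.18, -0.06 ± 0.27, -0.99 ± 0.34 and 0.06 ± 0.17 (brighter probe sets), and none passed. Doc2 (6561 bp), Doc1 (3668 bp) and Doc3 (2054 bp) are shorter and changed by -0.04 ± 0.33, 0.32 ± 0.18 and 0.68 ± 0.21. The part of span in these changes was not tested.

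Against both parental controls 3 of the 11 probe sets were lower with the allele pair, where 21.1% of all probe sets were called (8.46% higher and 12.7% lower, that is 1169 and 1751, against 2805 and 796 with each array centred on its median). salm fell by 0.83 ± 0.16 and salr by 0.88 ± 0.18 (limma, adjusted p = 0.00118 and 0.00185), to a fold of 0.563 and 0.544. The brighter rn probe set read 57.1, 24.9 and 19.5 with the allele pair, against 62.1, 72.1 and 104 in ey>wge, 132, 114 and 124 in UAS-wge and 200, 99.1 and 96 in ey-Gal4. It fell by 1.56 ± 0.29 against the controls (adjusted p = 0.00107), to a fold of 0.339. Against ey>wge its change of -0.99 ± 0.34 did not pass (adjusted p = 0.0877), although the arrays did not overlap, which held downward for 13.6% of all probe sets. All 3 probe sets lay below every control array, a pattern seen in 9.46% of all probe sets, while 6.08% and no member lay wholly above. Allele-pair replicate 1 alone differed from the controls by -0.47 for salm, -0.79 for salr and -0.93 for rn, with no replicate to test these differences. The gene span of rn is 37013 bp, longer than or equal to that of 92.8% of the tested probe sets with a span. Cell type markers moved in the same comparison. All 8 retinal markers fell (median change -2.22), as did all 3 glial markers tested (-1.40), 3 of 6 muscle markers (-0.64) and 4 of 8 antennal markers (-0.56), the last listed because rn is also expressed in the antennal disc. Blood cell markers fell in 3 of 7 (-0.65) and brain markers in 2 of 5 (-0.42). Fat body markers went the other way, with 2 of 4 higher (0.73), and 1 of 4 tracheal markers rose (-0.10). The controls differed in some of these markers. Summed blood cell markers of the allele pair (3078 to 4696) overlapped with ey-Gal4 (4077 to 5074) and not with UAS-wge (13575 to 21887). Its summed muscle markers (1078 to 1985) overlapped with UAS-wge (1684 to 2133) and not with ey-Gal4 (2749 to 5620). The antennal markers summed to 6262 to 7579 with the allele pair and 6731 to 7037 in ey>wge, against 9962 to 11379 in UAS-wge and 9980 to 11215 in ey-Gal4. Their part in the salm, salr and rn values was not tested.

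The other rn probe set had a change of the opposite sign. It read 63.1, 73.8 and 36.4 with the allele pair, against 26.8 ± 18.4 in ey>wge, 19.7 ± 25 in UAS-wge and 27.8 ± 22.6 in ey-Gal4 (SD, n = 3 each). Its change against the controls was 1.05 ± 0.46 (limma, adjusted p = 0.119). It passed, higher, under 4 of 20 other settings, with adjusted p-values up to 0.448 over all 20. The 4 were each array centred on its median (adjusted p = 0.0258), array weights, the span trend removed and UAS-wge replicate 2 left out. The sign for rn as a gene differs between its probe sets, and the transcripts each one matches are not given in the sources used here.

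**Figure D3:**
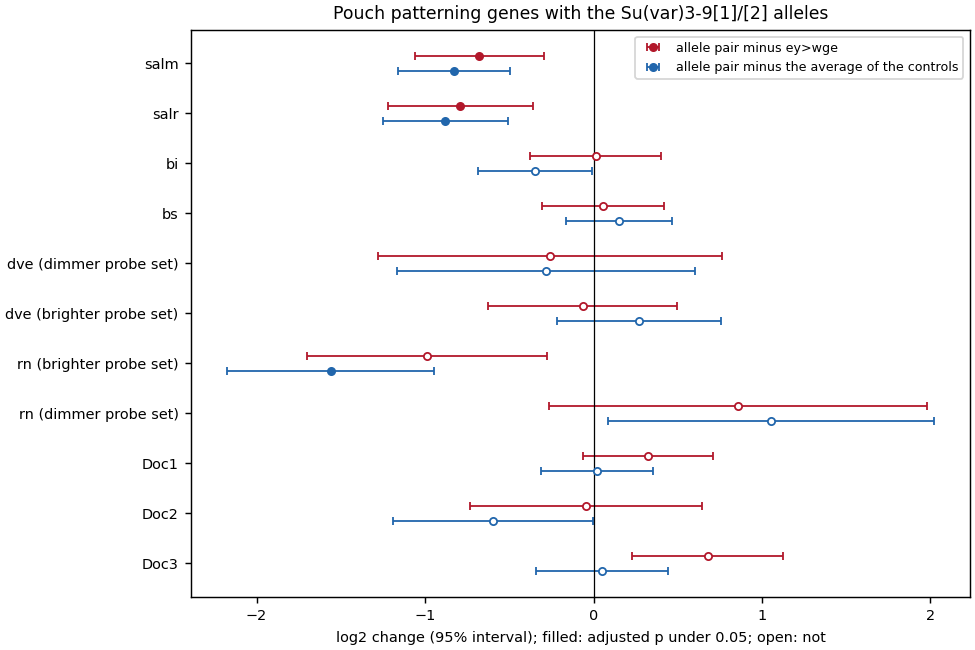
Change on the log2 scale with its 95% interval for each probe set in the allele pair minus ey>wge (red, upper) and minus the average of the 2 parental controls (blue, lower); filled points have an adjusted p under 0.05. salm and salr are filled in both comparisons, the brighter rn probe set only in the lower one at -1.56, and the dimmer rn probe set lies on the other side of 0 at 0.86 and 1.05.

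None of the Dorsocross genes passed in either comparison with the allele pair, and 2 of them read higher than in ey>wge. Doc3 read 263, 353 and 449, against 217, 239 and 181 in ey>wge, and Doc1 read 341, 400 and 397, against 298, 282 and 319 in ey>wge. In both genes every allele-pair array lay above every ey>wge array, which held for 8.63% of all probe sets. The changes were 0.68 ± 0.21 for Doc3 (SE; limma, adjusted p = 0.0652) and 0.32 ± 0.18 for Doc1 (adjusted p = 0.310), and both fell short. Doc3 passed, higher, under 5 of 18 other settings, with changes from 0.30 to 0.98 over all 18. Against the controls the changes were 0.05 ± 0.19 for Doc3 and 0.02 ± 0.16 for Doc1, each with allele-pair and control arrays that overlapped. Doc2 read 90.1, 94.7 and 82.5, against 88.1, 114 and 78.1 in ey>wge, a change of -0.04 ± 0.33.

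bi, bs and dve did not pass in either comparison with the allele pair. bi read 1886, 1400 and 1230, against 1291, 1335 and 1832 in ey>wge, and changed by 0.01 ± 0.18 (95% interval -0.38 to 0.40). bs read 703, 737 and 959, against 674, 761 and 857 in ey>wge, and changed by 0.06 ± 0.17 (interval -0.30 to 0.42). The brighter dve probe set read 774, 350 and 308, against 362, 530 and 503 in ey>wge. Its replicate 1 was the highest of all 12 arrays and the other replicates were below every ey>wge array, for a change of -0.06 ± 0.27. The dimmer dve probe set read 11, 33.2 and 17.2, against 3.3, 46.9 and 46.1 in ey>wge, and overlapped with it. Against the controls the changes were -0.35 ± 0.16 for bi (limma, adjusted p = 0.140), 0.15 ± 0.15 for bs (0.537) and 0.27 ± 0.23 for the brighter dve probe set (0.474). Replicate 1 had a summed fat body marker signal of 727, against 196 and 219 in allele-pair replicates 2 and 3 and 149 to 249 in ey>wge, and the part of that tissue in the value of dve on that array was not tested.

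**Figure D4:**
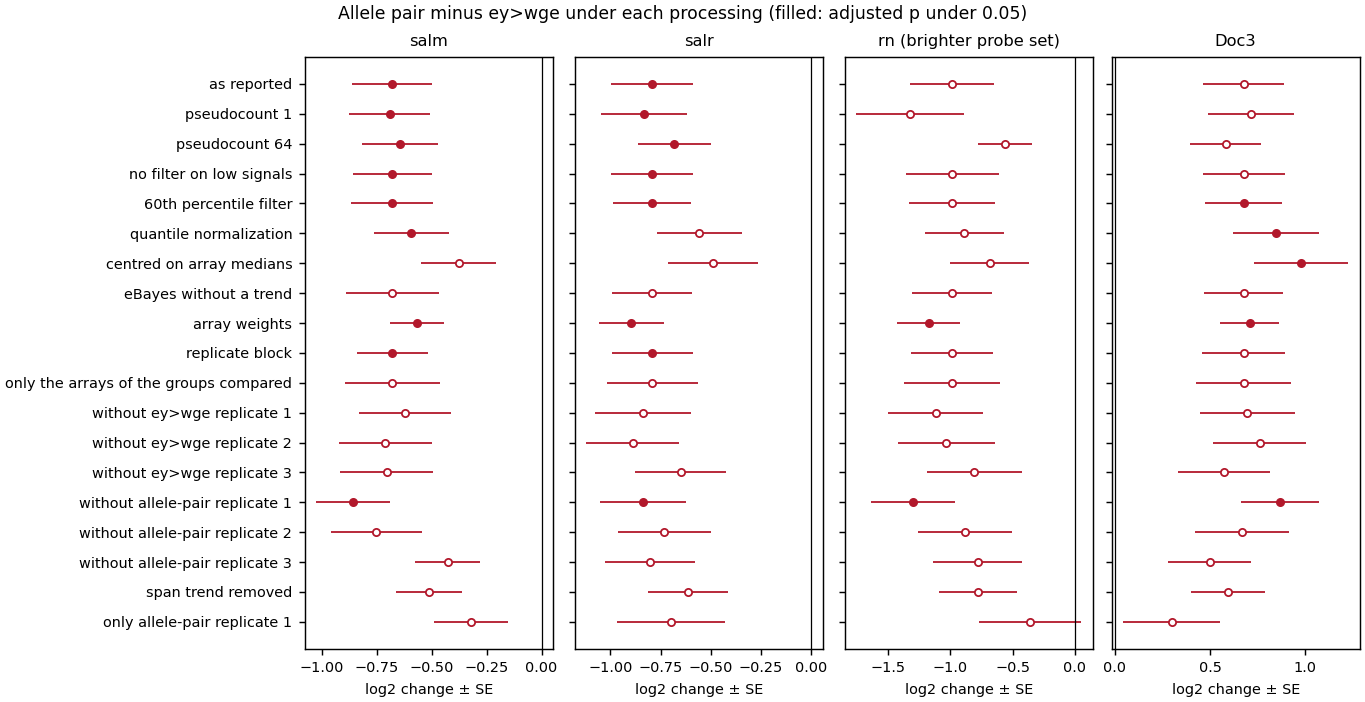
Change on the log2 scale (± SE) of salm, salr, the brighter rn probe set and Doc3 in the allele pair minus ey>wge, under the reported fit (top line) and 18 other settings; filled points have an adjusted p under 0.05. All points of salm, salr and rn lie below 0 and all of Doc3 above 0, and salm is filled in 8 and salr in 7 of the 18 other settings. On the last line the allele pair is 1 array and the bar rests on the spread of the other genotypes.

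Other cell types and lists moved in the allele pair against ey>wge, where 4.57% of all probe sets were called lower and 2.23% higher. The summed retinal markers overlapped between the allele pair (1998 to 3604) and ey>wge (3172 to 3817), and of the 8 only chp, a photoreceptor adhesion gene, fell (-1.80 ± 0.22). Muscle markers, listed because spalt major also acts in flight muscle, summed to 1078 to 1985 with the allele pair, against 2962 to 3768 in ey>wge, and 4 of 6 fell. Glial markers summed to 959 to 1640, against 1859 to 2212 in ey>wge, and 2 of 3 tested fell. The part of these cell types in the salm and salr values was not tested. Of the Dpp list 2 of 16 fell, namely shn, a zinc-finger cofactor gene of the pathway (-0.78 ± 0.21), and Dad, the inhibitory Smad gene (-0.44 ± 0.13), and none rose (list median -0.19, against -0.08 over all probe sets). In the list of wing selectors and hinge genes 7 of 10 fell and none rose, with vg at -2.04 ± 0.32 and a list median of -1.37. Among the 7 were ap, vg, nub and Dr, which had been singled out in these data for their rise in ey>wge, the baseline here. The count and the median of this list are therefore a description and no test. Of the 19 vein and intervein genes vvl (-1.91 ± 0.36) and the Iroquois gene mirr (-0.68 ± 0.19) fell and none rose, while kni (0.29 ± 0.21) and knrl (-0.36 ± 0.24) did not pass.

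The parental controls were compared to see whether the lines differ in these genes. None of the 11 probe sets passed between UAS-wge and ey-Gal4, where limma called 4.99% of all probe sets (2.31% higher and 2.69% lower). Doc2 had the largest difference, with 167, 248 and 180 in UAS-wge against 159, 48 and 135 in ey-Gal4. All UAS-wge arrays were higher, a pattern seen in 11.5% of all probe sets, and the change of 0.83 ± 0.33 did not pass (adjusted p = 0.214). It was the only member of the 11 with an unadjusted p under 0.05, which 1930 probe sets reached. The blood cell marker sums given above differed between the same groups, and their part in the Doc2 values was not tested.

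Ordered by mean level, the 4 genotypes were separated only in places. For salm the order was ey-Gal4, UAS-wge, ey>wge and allele pair, and only the last step had arrays that did not overlap. For salr the allele pair was again lowest and the other 3 overlapped. The brighter rn probe set ran from ey-Gal4 and UAS-wge, which overlapped, through ey>wge to the allele pair. The steps from UAS-wge to ey>wge and from ey>wge to the allele pair had no overlap, while ey>wge and ey-Gal4 overlapped. For Doc1 and Doc3 ey>wge was lowest and separate from UAS-wge, its neighbour in the order, and the other 3 genotypes overlapped in turn. UAS-wge was highest for Doc2 and separate from the rest in the order, while bi, bs, both dve probe sets and the dimmer rn probe set overlapped at every step. Over all probe sets, 13.6% lay wholly lower in the allele pair than in ey>wge, and 11.6% wholly lower in ey>wge than in UAS-wge. In 11.5% UAS-wge lay wholly above ey-Gal4. For the allele pair against UAS-wge alone, the last step of salr, the share was not counted.

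For the members that passed in any comparison, the other single-gene probe sets with the most similar profile were listed by Pearson's r of log2 values over the 12 arrays, as a description of values picked for being highest. The closest to salm were FBXO11 (r = 0.966), fog (0.966) and sls (0.963), and to salr CG30156 (0.948), Ide (0.946) and Cen (0.939). The brighter rn probe set was closest to Plp (0.980), Dad (0.975) and lola (0.949). The points of each r are the same 12 arrays, allele-pair replicates 2 and 3 included.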

How the data were processed

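The deposited intensity values are linear MAS5 signals of 18952 probe sets, and MAS5 is named without a version per the submitters' processing notes. With 2% left out at each end, every array's mean was 500.01 or 500.02, so the authors had scaled the arrays. The number of arrays limits the precision. Signals were taken as log2(signal + 16) without further normalization. Probe sets above their array's 40th percentile on at least 3 of 12 arrays were tested, without 183 Affymetrix controls, which left 13817. One mean per genotype was fitted to all arrays with limma 3.58.1 (R 4.3.3, eBayes with a trend), two-sided, with Benjamini-Hochberg adjustment over all probe sets tested and a threshold of 0.05. The 95% intervals are the model's, for single probe sets, and rest on a spread shared by all genotypes. A list gene is represented by its brightest probe set. Symbols and gene span came from the platform annotation and a RefSeq table (Release 6), and no coordinates are given because the array's build is not named. The members, gene lists and tests were chosen with earlier results of these data known. Named beyond the members were wge, the 4 selectors, the genes of each list that passed or had the smallest adjusted p in ey>wge, and the 3 probe sets most alike to each member that passed. List genes named with the allele pair were picked after their values were seen. The fit was also run on simulated data with the same spread in every genotype, so that run cannot vouch for the allele-pair calls. The labels do not say whether replicate numbers pair the arrays. Over 18 same-numbered pairs the deviations from group means correlated between -0.05 and 0.08, which shows no shared effect but cannot establish how the arrays were handled.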

Additional observations from a re-analysis of the deposited data

How the results depend on the processing

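Over the alternatives no called member change turned its sign. In the 3 ey>wge comparisons 588 alternative values of single probe sets held 0 calls higher and 6 lower, 5 of Doc3 and 1 of Doc2. Where a count of calls moved by over 1.5 times, the cause was not tested, except that fewer arrays or a setting's own construction enter as named.

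With each array centred on its median, the allele pair against ey>wge had 1 member (Doc3, higher) and 1560 probe sets called, and against the controls 5 members. Without the variance trend it had 0 members and 281 probe sets against ey>wge, and ey>wge had 321 probe sets against ey-Gal4. With array weights ey>wge had 1 member against both controls (Doc3), 1 against ey-Gal4 and 1 against UAS-wge, with 675, 831 and 899 probe sets, and the allele pair had 5 members and 4409 probe sets against ey>wge and 5 members and 6454 probe sets against the controls. With only the arrays of the groups compared, ey>wge had 1 member (Doc3) and 722 probe sets against both controls, 845 probe sets against ey-Gal4 and 1 member (Doc2) and 842 probe sets against UAS-wge, and the allele pair had 0 members and 252 probe sets against ey>wge.

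Removing the trend with gene span, chosen after seeing the data, gave 1 member (Doc3) in ey>wge against both controls, and 0 members and 615 probe sets in the allele pair against ey>wge and 5 members against the controls. With only allele-pair replicate 1, also chosen after seeing the data, the group is 1 array that is assumed to vary like the other genotypes, so calls lost or gained there say little about stability. There were 0 members and 173 probe sets against ey>wge, and 1 member (dve, higher) and 657 probe sets against the controls.

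Leaving out 1 array at a time, the count of members ran from 0 to 4 for the allele pair against ey>wge, 3 to 4 against the controls, and stayed at 0 in the other comparisons. The count of probe sets ran from 314 to 2927 for the allele pair against ey>wge, 1693 to 4211 against the controls, 250 to 375 for ey>wge against both controls, 299 to 359 against ey-Gal4, 329 to 361 against UAS-wge, and 457 to 526 for UAS-wge against ey-Gal4. The highest counts with the allele pair came without its replicate 1, when rn (-1.30, adjusted p = 0.00923) and Doc3 (0.87, adjusted p = 0.00501) joined salm and salr.

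The labels do not say that replicate numbers pair the arrays, and a fit with the number as a block had 0, 0 and 0 members called for ey>wge, 2 and 3 for the allele pair and 0 between the controls, and 1056 probe sets for the allele pair against ey>wge. The other alternatives, another pseudocount, filter or quantile normalization, left every count within 1.5 times, but not the same calls. In the allele pair against ey>wge, salr missed the test after quantile normalization (-0.56, adjusted p = 0.133) while Doc3 passed, higher (0.85, adjusted p = 0.0363), and Doc3 also passed with the 60th percentile filter (0.68, adjusted p = 0.0411). The dimmer dve and rn probe sets lie near background, which limits what their values can show.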
